A study of Mus musculus with 3 samples.

Results

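The BCL2 family comprises the proteins that set the threshold for mitochondrial cell death. The genes described here were 10 members fixed by name: Bcl2, Bcl2l1, Bcl2l2, Mcl1, Bcl2l11, Bik, Bid, Bmf, Bok and Bak1. Every gene spot whose deposited gene name was one of these was taken, which gave 13 probes of 39429 distinct probes on the array, and all 10 members were among the 19434 genes tested. The tumours were 3 primary gastric cancers of the diffuse type, taken from mice of the genotype Atp4b-Cre+;Cdh1loxP/loxP;Trp53loxP/loxP at 12 months of age. The reference was a pool of 5 normal gastric mucosae from Atp4b-Cre-;Cdh1loxP/loxP;Trp53loxP/loxP mice of the same age, so both sides carried the floxed alleles and only the tumours carried the recombinase. Cre is expressed from the promoter of Atp4b, a parietal cell gene. Each tumour (red, Cy5) was hybridised with the pool (green, Cy3) on its own 2-colour Agilent array. The mucosae were freed of stroma in 30 mM EDTA, a treatment the labels do not give for the tumours, so the compared tissues also differ in their mix of cells. In bulk RNA of this kind, a change in the share of a cell type cannot be told apart from a change in RNA per cell.

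BCL2 proteins fall into 3 roles. Survival proteins (Bcl2, Bcl2l1, which encodes BCL-XL, Bcl2l2, which encodes BCL-W, and Mcl1) bind and hold back the proteins that promote death. The effectors Bak1 and Bok can permeabilise mitochondria, which releases cytochrome c and leads to caspase activation. BH3-only proteins (Bid, Bcl2l11, which encodes BIM, Bmf and Bik) carry a short helix, the BH3 domain, with which they neutralise survival proteins or activate effectors. Several family genes are transcribed in response to p53, and parietal and surface cells of the stomach turn over by death and shedding.

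On every array, 12 of the 13 probes had red and green signals well above background. The remaining one, a second probe of Bcl2l2, passed in neither colour on any array. Bcl2l1, Bcl2l2 and Mcl1 had 2 probes each and the other 7 genes had 1. The sequences below are those of the probes of Bcl2, Bcl2l1, Bcl2l11 and Bik taken to lie in protein-coding sequence. That position rests on general knowledge of these genes, since no annotation was used to place the probes. In the Bcl2l11 probe the capitals mark bases that encode part of the core of the BH3 domain. That probe matches 60 bases of messenger but spans 11096 bases of the genome, so it crosses an intron. All are on mm9, per the file headers, and each is printed in the sense of the messenger.
Bcl2, chr1:108608970-108609029, minus strand: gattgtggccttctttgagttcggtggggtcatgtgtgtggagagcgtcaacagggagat
Bcl2l1, chr2:152655185-152655244, minus strand: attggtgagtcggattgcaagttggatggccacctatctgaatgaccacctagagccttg
Bcl2l11, chr2:127972893-127983988, plus strand: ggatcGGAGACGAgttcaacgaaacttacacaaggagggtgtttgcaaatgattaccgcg
Bik, chr15:83374048-83374107, plus strand: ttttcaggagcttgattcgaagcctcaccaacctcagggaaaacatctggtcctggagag

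The other probes used for a gene lie at chr1:95592276-95592335 (Bok), chr6:120843464-120843523 (Bid), chr2:118354496-118354555 (Bmf), chr3:95466855-95466914 (Mcl1), chr2:152606404-152606463 (Bcl2l1), chr17:27156807-27156866 (Bak1) and chr14:55506840-55506899 (Bcl2l2). Exon or UTR was not assigned for any probe, since no annotation of mm9 was used here. The deposited annotation assigns the Bcl2 probe to transcript variant 2, and lists the Bcl2l11 probe under several transcripts, so isoforms were not resolved.

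Results are given as the log2 ratio of tumour to pool, fitted with limma over 19434 genes and adjusted by the Benjamini-Hochberg method. A gene is said to have risen or fallen at an adjusted p under 0.05, and is called when the difference was also at least 2-fold. On each of the 3 arrays 52.5 to 54.2% of gene spots were well above background in green and 64.0 to 66.8% in red. Cdh1 had log2 ratios of -4.62, -3.27 and -4.83 (adjusted p = 0.00186), and Trp53 had -0.12, -0.12 and -0.38 and did not pass (adjusted p = 0.161). The mean of Trp53 was -0.21, but it was -0.52 with no background offset and -0.72 from Agilent's processed signals. It was -0.999 with arrays centred on spike-in controls (spike-in centring), where it passed (adjusted p = 0.00785). Adjusted p-values from limma under spike-in centring were on another scale, with 6.65e-31 for Cdh1 at -3.92. A pass or a failure under spike-in centring is therefore not comparable with one under the other settings. Which exons are floxed was not known here, so what the Cdh1 and Trp53 probes say about the deletions cannot be told. The pool is 1 control sample, so the spread among normal mice does not enter the test, and a dye effect stays in every ratio because all tumours were red.

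Of the 10 BCL2 family genes, 8 differed by less than 2-fold between tumours and pool, and the differences ran both ways within each of the roles that had more than 2 members. By limma, 2 of the 10 members were called higher, Bok and Bid, and 0 were called lower, although 2 were lower at an unadjusted p under 0.05, as were 26.5% of all genes (29.8% were higher). Bik was called lower in 4 of 12 other settings, though Agilent's processed signals and the authors' table gave the same ratio. Mcl1 was called higher when its other probe was read, which made 3 members called. Among all genes tested 19.0% were called, 9.33% higher and 9.68% lower, so 2 of 10 is a share close to that of genes in general. Without the fold criterion 4 members rose (Bok, Bid, Bmf and Bcl2), 2 fell (Bcl2l2 and Bik) and 4 did not pass. The share of all genes that passed this way was 47.4%, with 24.5% higher and 22.9% lower. The median log2 ratio of the 10 members was 0.40, against 0.05 for all genes, and was 0.23 without replicate 2. It ran up to 1.71 with arrays centred on the median of gene spots in place of loess (median centring), where that of all genes was 0.77.

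**Figure D1:**
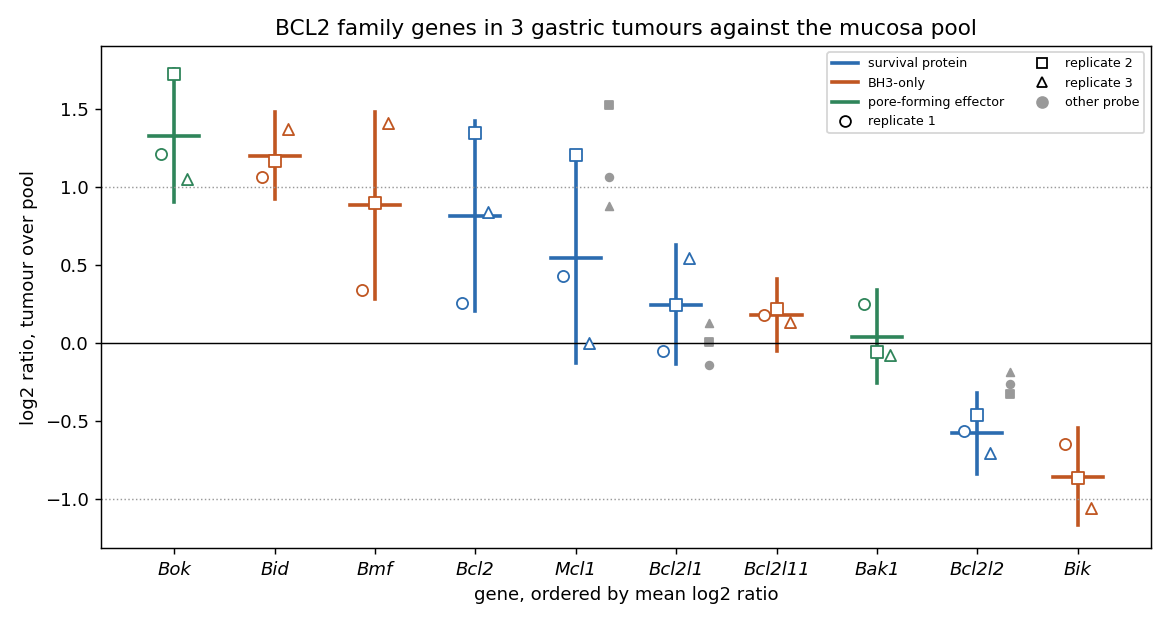
Log2 ratio of tumour over pool (vertical axis) for each BCL2 family gene (horizontal axis, ordered by mean). Open symbols are the 3 arrays, horizontal bars the mean, vertical bars the 95% interval of the fit, grey symbols a gene's other probe, and dotted lines mark a 2-fold difference. Bok and Bid lie above the upper dotted line on all 3 arrays, and Bcl2l2 and Bik lie below 0 on all 3.

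Among the effectors, Bok rose and Bak1 did not pass the test. Bok encodes an effector that survival proteins restrain only weakly. Its log2 ratios were 1.22, 1.73 and 1.05 on replicates 1, 2 and 3, a mean of 1.33 ± 0.35 (SD, n = 3) or 2.52-fold (adjusted p = 0.00494). All 3 tumours were above the pool by more than 2-fold, with replicate 2 the highest. Its log2 signal was 11.76, 12.25 and 11.69 in the tumours and 10.54, 10.52 and 10.64 in the pool aliquots, and the channels did not overlap. Bok had a higher log2 ratio than 93.9% of all genes. Bak1 encodes BAK, which sits in the outer mitochondrial membrane and is kept inactive by MCL1 and BCL-XL. Its log2 ratios were 0.25, -0.05 and -0.07, with a mean of 0.04 ± 0.18 (SD, n = 3; adjusted p = 0.772). The arrays fell on both sides of 0, and the 95% interval ran from -0.25 to 0.34. With median centring it was 1.32 (adjusted p = 0.000895).

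The 4 BH3-only genes moved both ways: Bid and Bmf rose, Bik fell and Bcl2l11 did not pass. Bid encodes a protein that caspase-8 cleaves, and so connects death receptors to mitochondria. The log2 ratios of Bid were 1.07, 1.17 and 1.37, a mean of 1.20 ± 0.16 (SD, n = 3) or 2.30-fold (adjusted p = 0.00225). The 3 tumours lay close together, and each was more than 2-fold above the pool. The log2 signal of Bid was 8.42, 8.64 and 8.98 in the tumours and 7.35, 7.47 and 7.60 in the pool. With no background offset the mean log2 ratio of Bid was 1.58, so the size of its rise depended on the offset.

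Bmf encodes a BH3-only protein that binds the dynein light chain of the actin and myosin cytoskeleton and has been linked to death after loss of anchorage. Bmf had log2 ratios of 0.34, 0.90 and 1.41, a mean of 0.88 ± 0.53 (SD, n = 3; adjusted p = 0.0336), with replicate 3 highest and replicate 1 nearest to 0. The spread between its tumours was larger than that of 89.9% of genes. Without replicate 2 the adjusted p was 0.110 at a mean of 0.88, and without replicate 3 it was 0.0977 at 0.62, so Bmf did not pass with either left out. It was 1.15 without replicate 1.

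Bcl2l11 encodes BIM, which binds all the survival proteins. Its log2 ratios of 0.18, 0.22 and 0.14 were nearly equal on the arrays, a mean of 0.18 ± 0.04 (SD, n = 3; adjusted p = 0.151). The signal was low, at 7.12 in red and 6.94 in green on the log2 scale, against lowest signals well above background of 5.62 and 6.10. With no offset in the background correction the mean was 0.32 and did not pass (adjusted p = 0.111). It was 0.66 (adjusted p = 0.0255) from Agilent's processed signals, in which background and dye normalisation also differ. It was -0.20 (adjusted p = 0.647) when arrays were centred on spike-in controls. Neither size nor direction was therefore settled for Bcl2l11.

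Bik encodes a BH3-only protein of the endoplasmic reticulum, and it was the lowest of the members. Its log2 ratios were -0.65, -0.87 and -1.06, a mean of -0.86 ± 0.21 (SD, n = 3; adjusted p = 0.00668), or 1.81-fold lower. All 3 tumours lay below the pool, and only replicate 3 was past 2-fold. Its signal in the tumours averaged 6.63 on the log2 scale, near the lowest well above background. Bik was called lower with no background offset (-1.47, adjusted p = 0.00332), from Agilent's processed signals (-1.80, adjusted p = 0.00521), with spike-in centring (-1.23, adjusted p = 0.000904) and in the authors' table (-1.80, adjusted p = 0.00332). The authors' table holds the same ratio as Agilent's processed signals, so those calls are not separate. With median centring it was -0.38 and did not pass (adjusted p = 0.0702).

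**Figure D2:**
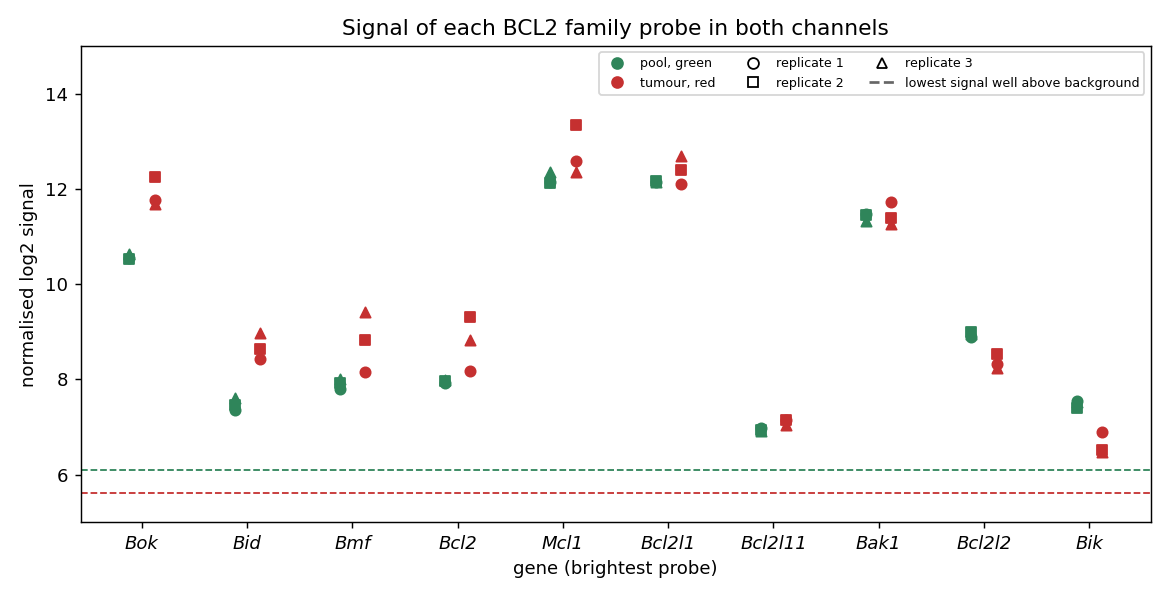
Normalised log2 signal (vertical axis) of the brightest probe of each BCL2 family gene in the tumours (red) and in the pool aliquots (green), with a symbol for each array and dashed lines at the mean lowest signal well above background. Within each gene the red points spread more than the green, and the red spread is smallest for Bcl2l11. Bcl2l11 and Bik lie closest to the dashed lines. Heights of different probes are not comparable.

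Of the 4 survival genes, Bcl2 rose, Bcl2l2 fell, and Mcl1 and Bcl2l1 did not pass at their brightest probes. Bcl2 encodes the founding member of the family and is abundant in lymphocytes. Its log2 ratios were 0.26, 1.35 and 0.84, a mean of 0.82 ± 0.55 (SD, n = 3; adjusted p = 0.0429). Replicate 2 was the highest and replicate 1 the lowest, and the tumours differed from each other by more than 1 log2 unit while the pool aliquots lay between 7.92 and 7.99 in log2 signal. The rise passed only narrowly. The mean was 0.55 without replicate 2 (adjusted p = 0.118), 0.80 without replicate 3 (adjusted p = 0.155) and 1.10 without replicate 1. Nor did Bcl2 pass when loess ratios were centred on tested genes (0.78, adjusted p = 0.0501), from Agilent's processed signals (0.95, adjusted p = 0.0522) or when dim probes were kept (adjusted p = 0.0700).

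Mcl1 encodes a short-lived survival protein that is under strong control by protein degradation. At its brightest probe the log2 ratios were 0.43, 1.21 and 0.00, a mean of 0.55 ± 0.61 (SD, n = 3; adjusted p = 0.139). Replicate 3 did not differ from the pool and replicate 2 was more than 2-fold above it. Its other probe, at chr3:95465543-95465602 and 1312 bases nearer the 5′ end of the messenger, gave 1.07, 1.53 and 0.88, a mean of 1.16 ± 0.33 (SD, n = 3). In a fit over all 24164 probes kept, that probe was called at 2.23-fold (adjusted p = 0.00623) and the brightest did not (adjusted p = 0.140). The other probe was higher on every array, by 0.63, 0.32 and 0.88, and both ranked replicate 2 first and replicate 3 last. The probes differed by about as much as the mean ratio of the brightest, so the size of the change in Mcl1 depended on which probe was read. Mcl1 passed with median centring (1.97, adjusted p = 0.00313), with spike-in centring (1.12, adjusted p = 0.00278) and with the median of its probes (0.85, adjusted p = 0.0287). The cause was not tested.

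Bcl2l1 encodes BCL-XL. Its brightest probe gave -0.05, 0.24 and 0.55, a mean of 0.25 ± 0.30 (SD, n = 3; adjusted p = 0.216), with the tumours on both sides of 0. The probe of this gene printed above gave -0.14, 0.00 and 0.13, a mean of -0.0015 ± 0.13 (SD, n = 3). Both probes ranked the tumours in the same order, and neither passed in the fit over all probes (adjusted p = 0.212 and 0.991). The 95% interval of the brightest probe was -0.14 to 0.63. Bcl2l1 passed with median centring (1.64, adjusted p = 0.00176) and with spike-in centring (0.79, adjusted p = 0.0370).

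Bcl2l2, which encodes BCL-W, was the only survival gene to fall. The arrays gave log2 ratios of -0.56, -0.46 and -0.70, a mean of -0.58 ± 0.12 (SD, n = 3; adjusted p = 0.0115), or 1.49-fold lower, and the tumours lay close together. The sign turned to 0.44 with median centring (adjusted p = 0.0467). Relative to the median of all genes under that setting, Bcl2l2 stayed low, by 0.33. It was -0.51 without replicate 3 (adjusted p = 0.0546) and -0.41 with spike-in centring (adjusted p = 0.307), and did not pass in either. Its other probe, not well above background, gave -0.26, -0.33 and -0.18.

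Ordered by mean log2 ratio, the members ran from Bok through Bid, Bmf, Bcl2, Mcl1, Bcl2l1, Bcl2l11 and Bak1 to Bcl2l2 and Bik. Of the 9 neighbouring pairs in this order, 8 had ranges over the arrays that overlapped, and only Bak1 and Bcl2l2 were apart. The order of neighbours within the upper part of the list is therefore not resolved with 3 tumours. Members further apart could differ throughout: Bok and Bid lay above Bcl2l1 and Bcl2l11 on every array. Bik lay below Bcl2l2 on every array, although their ranges overlapped. Survival and death-promoting genes were interleaved: the median log2 ratio was 0.40 for the 4 survival genes and 0.53 for the 4 BH3-only genes. Signals of the pool aliquots had a median SD of 0.07 log2 units at the members' brightest probes, and those of the tumours 0.29, reaching 0.64 for Bmf. Over all genes these were 0.07 and 0.22, so the contrast between aliquots of 1 pool and separate tumours is general.

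With 12 other choices of processing or of arrays, Bok and Bid stayed called higher in every one. These were not 12 separate checks. Both genes have 1 probe, so the filter settings and the median of a gene's probes left their ratios unchanged. The authors' table repeated the ratios from Agilent's processed signals, 1.43 for Bok and 1.40 for Bid. Bok ranged from 1.13 to 2.59 and Bid from 1.12 to 2.10. Bcl2 passed in 7 of the 12, Bmf in 8, Bik in 11 and Bcl2l2 in 10, of which 1 was in the opposite direction. For these genes too, the filter settings and the median of a gene's probes left the ratios unchanged, and the authors' table repeated Agilent's. The counts also include spike-in centring, where a pass or a failure is not comparable with the others.

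**Figure D3:**
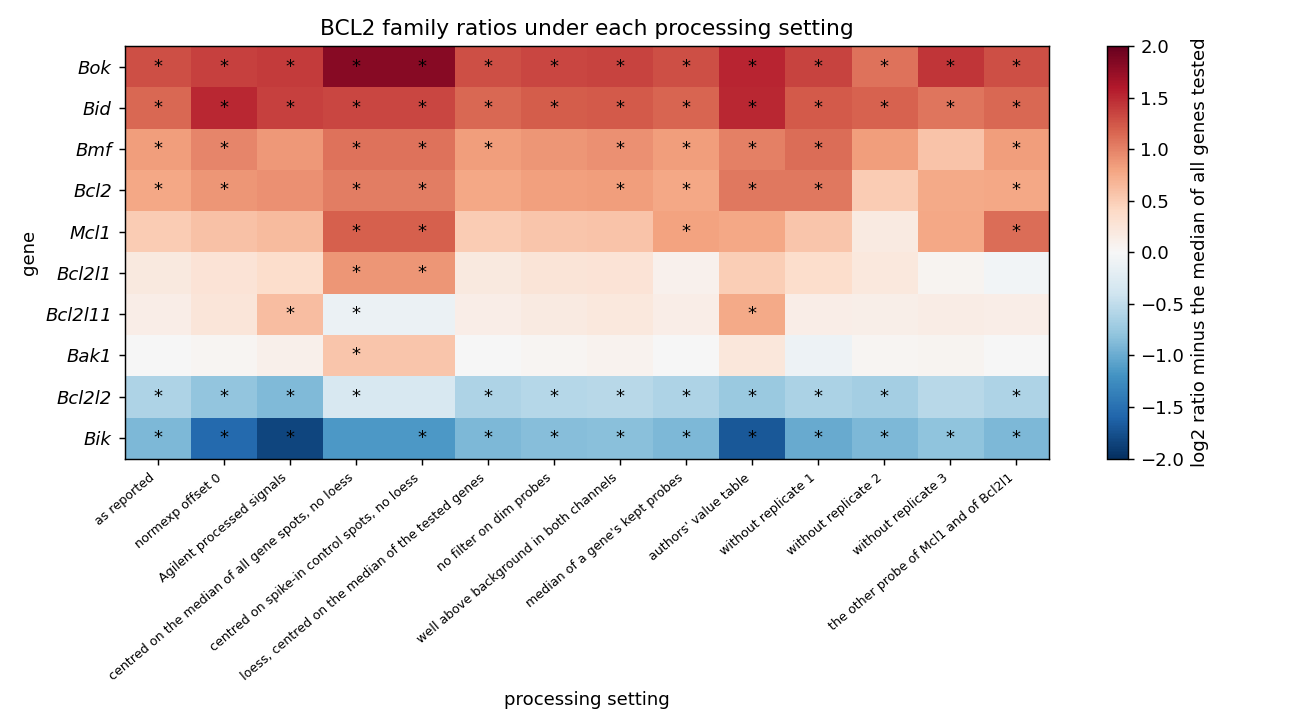
Log2 ratio of each BCL2 family gene (rows) under each processing setting (columns), after subtracting the median of all genes tested under that setting. Stars mark an adjusted p under 0.05 for the ratio before subtraction. Bok and Bid are starred in every column, and relative to the median of all genes Bik and Bcl2l2 are low in every column.

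Cell type markers moved strongly with the same comparison. Among markers of the gastric gland, 10 of 10 parietal cell genes, 5 of 5 chief cell genes measured and 7 of 7 surface and neck mucous cell genes fell. Of the endocrine markers 4 of 5 fell. The summed signal of the parietal markers was 4930 to 8660 in the tumours and 396000 to 418000 in the pool. Markers of other cells rose: 8 of 8 for macrophages, 6 of 8 for neutrophils, 5 of 6 for B and plasma cells, 4 of 5 for T and NK cells, 8 of 9 for fibroblasts, 4 of 6 for smooth muscle and 3 of 6 for endothelium, where 1 fell. Of 5 pancreatic acinar markers measured, 5 fell.

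The members that varied most between tumours can be set beside these lists. Bcl2 was highest on replicate 2, and so were the medians of the B and plasma cell markers (1.85, 3.12 and 2.22 on replicates 1, 2 and 3), the T and NK cell markers (1.05, 1.53 and 1.03) and the smooth muscle markers (0.49, 2.56 and 1.55). Summed over their markers, B and plasma cell signals were 5170 to 14000 in the tumours and 1450 to 1730 in the pool. Those of T and NK cells were 1670 to 2690 and 942 to 1030, with Klrb1c and Ncr1 of that list not well above background. Those of smooth muscle were 28700 to 80800 and 13400 to 14400. Mcl1 was also highest on replicate 2, unlike the neutrophil markers, whose median was highest on replicate 1 (5.18, 2.93 and 3.11), with summed signals of 28500 to 207000 in the tumours and 1300 to 1850 in the pool. Macrophage medians (2.25, 2.84 and 2.80) varied less, at 20800 to 24000 against 3580 to 3730. Bmf was highest on replicate 3, where none of these medians was highest. Fibroblast medians (3.26, 2.95 and 1.64) and endothelial medians (1.40, 0.91 and 0.65) were highest on replicate 1 and lowest on replicate 3, with summed signals of 51500 to 165000 against 16700 to 18200 and of 3900 to 7270 against 3280 to 3410. The part of these cells in the ratios of the BCL2 family genes was not tested.

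**Figure D4:**
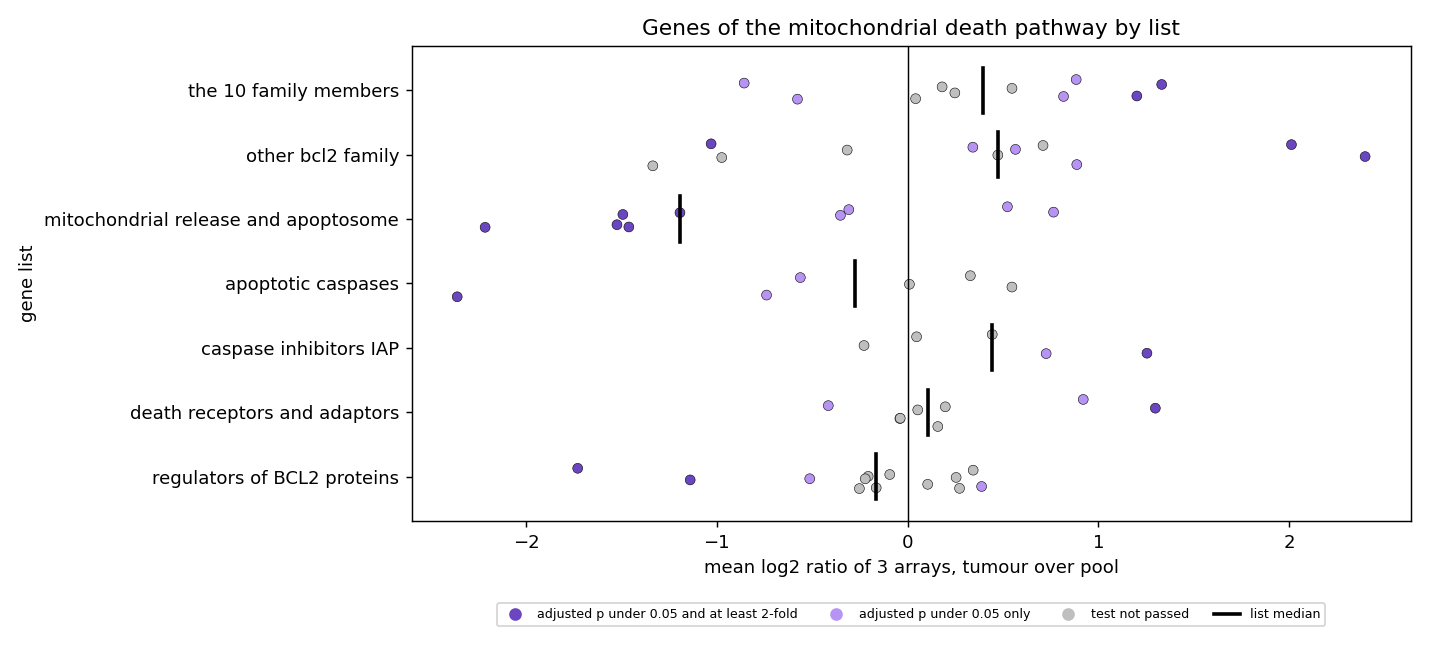
Mean log2 ratio of tumour over pool (horizontal axis) for the 10 family members and for each list of other genes of the death pathway (vertical axis), coloured by whether the test was passed, with the list median as a black bar. The list of mitochondrial release and apoptosome genes has its median at -1.19, and the family members spread on both sides of 0.

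Other genes of the pathway were taken from 6 lists of 57 genes, of which 52 were tested. Of these 52, 4 were called higher and 9 lower, against 9.33% and 9.68% of all genes, and their median log2 ratio was -0.01. Of 15 further BCL2 relatives 11 were tested, with 2 called higher, 1 called lower and a median of 0.47. Bcl2a1d, which encodes a survival protein of blood cells, had log2 ratios of 2.23, 2.53 and 2.43, a mean of 2.40 ± 0.15 (SD, n = 3; adjusted p = 0.000610). The mouse has several nearly identical copies of this gene, so the signal may come from more than one. Bcl2l15, a relative expressed in the gastrointestinal tract, was at 2.16, 2.39 and 1.49 (2.01 ± 0.47, SD, n = 3; adjusted p = 0.00306). Bcl2l13 encodes a mitochondrial relative that also serves as a mitophagy receptor and was at -0.77, -1.55 and -0.77 (-1.03 ± 0.45, SD, n = 3; adjusted p = 0.0155). It did not pass without replicate 3 (-1.16, adjusted p = 0.0527), and was 0.06 with median centring. Of the relatives central to this pathway not among those 3, named here after their values were seen, the effector gene Bax rose by 0.57 (adjusted p = 0.0104) and the BH3-only gene Pmaip1 by 0.89 (adjusted p = 0.0252). The BH3-only gene Bbc3 was at 0.71 (adjusted p = 0.0766) and Bad at -0.32 (adjusted p = 0.0524), and neither passed. Bax, Pmaip1 and Bbc3 are known targets of p53. Bcl2l14 was at -2.51, -0.92 and -0.58 and did not pass either (-1.33, adjusted p = 0.0543).

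Genes listed under mitochondrial release and the apoptosome were lower in most cases. Of these 9 genes, 5 were called lower and 0 higher, with a median of -1.19. The 5 included the channel genes Vdac1 (-1.19) and Vdac2 (-1.46). At an unadjusted p under 0.05 in limma, 2 of the 9 were higher and 7 lower, and the same held at an adjusted p under 0.05. The 2 that rose were Apaf1 (0.52, adjusted p = 0.0115) and Htra2 (0.77, adjusted p = 0.00745). Of all genes, 29.8% were higher and 26.5% lower at that unadjusted p, and 24.5% and 22.9% at the adjusted p. Cycs, which encodes cytochrome c, was at -2.21 ± 0.37 (SD, n = 3; adjusted p = 0.00162), lowest on replicate 3. Endog, a mitochondrial endonuclease gene, was at -1.52 ± 0.20 and Aifm1, the apoptosis-inducing factor gene, at -1.49 ± 0.11 (SD, n = 3). With median centring none of these 3 was called, at -0.62 for Cycs, -0.47 for Endog and -0.24 for Aifm1, which no longer passed (adjusted p = 0.135). All 3 encode mitochondrial proteins that also serve living cells, and parietal cells, whose markers fell as given above, are rich in mitochondria. The part of parietal cells in this list's ratios was not tested.

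Of 6 apoptotic caspase genes 1 was called lower and 0 higher, with 3 lower and 0 higher at an unadjusted p under 0.05, and the median was -0.28. Among all genes 26.5% were lower and 29.8% higher at that p, which is the share to set beside each list here. The called gene was Casp6, an executioner caspase, at -2.30, -2.40 and -2.39 (-2.36 ± 0.05, SD, n = 3; adjusted p = 0.000496). Of 5 genes of caspase inhibitors 1 was called higher and 0 lower, with 3 higher and 0 lower at an unadjusted p under 0.05, and the median was 0.44. This was Birc5, which encodes survivin and is made mainly by dividing cells, at 1.52, 0.93 and 1.31 (1.25 ± 0.30, SD, n = 3; adjusted p = 0.00429). It was 0.79 and not called with the median of its probes (adjusted p = 0.00688). Of 8 death receptor and adaptor genes tested 1 was called higher, Tnfrsf10b, the receptor of the ligand TRAIL, at 1.46, 1.35 and 1.08 (1.30 ± 0.20, SD, n = 3; adjusted p = 0.00232). In that list 0 were called lower, with 2 higher and 1 lower at an unadjusted p under 0.05, and the median was 0.11. Of 13 genes that regulate BCL2 proteins 2 were called lower and 0 higher, with 2 higher and 3 lower at an unadjusted p under 0.05, and the median was -0.16. These were Dynll2, the dynein light chain that binds BMF, at -1.98, -1.72 and -1.49 (-1.73 ± 0.24, SD, n = 3; adjusted p = 0.00153), and Stat5a, a transcription factor of cytokine signalling, at -1.14 ± 0.22 (SD, n = 3; adjusted p = 0.00352). With median centring neither passed, at -0.50 for Dynll2 (adjusted p = 0.0619) and -0.16 for Stat5a (adjusted p = 0.479).

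Over the 3 arrays, the named genes whose log2 ratios lay nearest to those of Bok, by Euclidean distance, were Dok3 (1.28, 1.69 and 1.04, at a distance of 0.0763) and Kank3 (1.19, 1.83 and 1.03, at 0.106). Nearest to Bid were Tpx2 (1.11, 1.23 and 1.35, at 0.0778) and Prg4 (1.09, 1.23 and 1.33, at 0.0836). Such closeness over 3 values was common, with 162 named genes within 0.5 of Bok and 247 within 0.5 of Bid.

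The promoters of Bok and Bid, the members called higher, are shown for their makeup. They are the 250 bases before the transcription start in RefSeq, on GRCm38.p6, with the GC boxes (GGGCGG, or CCGCCC when read on the other strand) in capitals.
Bok, chr1:93685325-93685574, plus strand: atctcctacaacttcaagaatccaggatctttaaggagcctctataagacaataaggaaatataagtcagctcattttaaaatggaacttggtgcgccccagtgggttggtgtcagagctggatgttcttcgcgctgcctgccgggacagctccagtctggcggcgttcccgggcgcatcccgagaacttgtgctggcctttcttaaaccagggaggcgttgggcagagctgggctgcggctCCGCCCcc
Bid, chr6:120916825-120917074, minus strand: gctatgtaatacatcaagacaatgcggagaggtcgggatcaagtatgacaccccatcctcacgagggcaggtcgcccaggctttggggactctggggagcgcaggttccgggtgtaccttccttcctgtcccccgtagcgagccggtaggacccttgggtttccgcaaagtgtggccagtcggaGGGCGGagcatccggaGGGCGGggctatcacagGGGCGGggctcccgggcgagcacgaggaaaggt

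Bid held 3 GC boxes and Bok 1 in this stretch. RefSeq promoters of 300 bases were at hand for 9 of the 10 members, 14 in all, and Bik was the member without one. Of these 14, 8 held a GC box on either strand, as did 35.7% of all 32851 such promoters. The 14 held 0 TATA boxes (TATAAA, 13.6% of all promoters) and 0 E-boxes (CACGTG, 7.15%), and 1, of Bmf, held a match to the p53 half-site consensus (8.36%). These letters describe the windows only, and the alleles of the mice studied were not read.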

How the data were processed

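Intensity values (mean spot signals and median local backgrounds) were deposited for each 2-colour array. Input was 250 ng of RNA of integrity above 7, per the labels. They were made with Agilent Feature Extraction, version 10.7.3.1 per the file headers and 9.5.3 per the submitters' processing notes. Its log10 ratios, deposited with the intensities, set red against green. The authors' deposited log2 ratios lay within 0.01 of these for 99.75 to 99.79% of filled probes, once on the same scale.

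Signals were corrected with normexp (offset 50) and normalised by loess within arrays with limma 3.58.1 (R 4.3.3). Spots of controls and 157, 167 and 190 outlier spots on replicates 1, 2 and 3 were left out. Probes were kept if either channel was well above background on all 3 arrays, and the brightest kept probe stood for a gene. Names came from accessions in RefSeq (GRCm38.p6) for 26055 probes and from the files for 13374. Log2 ratios of 19434 genes were tested against 0 by limma's moderated test (lmFit, eBayes; two-sided). Channel signals were further Aquantile-normalised for levels only. Spike-in centring used the median of all E1A spots, which carry several designed ratios.

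The code was tested on simulated data. Of 50 genes given a log2 ratio of 1, 22 passed and 14 were called, and of 50 given a ratio of 2, 40 were called. False passes numbered 7. Only 50 genes at each simulated ratio were changed among 19434, whereas 47.4% of all genes passed in the real data. An adjusted p under 0.05 is harder to reach where few genes change, so these counts do not give the sensitivity of the test here. A gene that did not pass is not shown to be unchanged. The members and lists were chosen with earlier results of these data known. The text names the members, Cdh1 and Trp53, up to 3 called genes per pathway list with the largest absolute ratio, and the 2 nearest genes for the highest and lowest called member. Bax, Pmaip1, Bbc3, Bad, Bcl2l14, Vdac1, Vdac2, Apaf1 and Htra2 were added after their values were seen. Atp4b, also in that rule, had a log2 ratio of -6.83. Per the labels, each tumour is a biological replicate. The number of arrays limits the precision.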

Additional observations from a re-analysis of the deposited data

How the results depend on the processing

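Of 3696 genes called, the count was 5743 with no normexp offset, 6817 from Agilent's processed signals and 8303 with median centring (arrays centred on the median of gene spots, no loess). Called genes were 49.1% higher as reported, 93.3% with median centring, 50.6% with spike-in centring, 54.8% with Agilent's processed signals and 41.3% with the authors' table. The 13 called genes of the pathway lists became 28 with median centring. Called BCL2 family members numbered 4 with no offset, 7 with median centring and 4 with spike-in centring, and 2 to 4 when 1 array was left out. Members that rose numbered 9 with median centring and 2 with no filter on dim probes, and 2 to 4 without 1 array. Members that fell numbered 0 with median centring, where by limma 9 were higher, and 1 with spike-in centring, and 1 to 2 without 1 array. Signs turned for Bcl2l2 (0.44, median centring), Bcl2l13 (0.055, median centring), Bcl2l11 (-0.20, spike-in centring), Bak1 (-0.063 without replicate 1, and up to 0.10 without another array) and Bcl2l1 (-0.0015 with its other probe, an alternative chosen after seeing the data). The cause was not tested. No paired analysis was possible because the pool has no replicates of its own and each ratio already pairs a tumour with it. Dim probes (Bcl2l11, Bik) and 3 tumours against 1 pool limit what these ratios can show.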
